A study of Mus musculus with 2 samples.

Results

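The 10 genes described here encode subunits of the Polycomb repressive complexes: Ezh1, Ezh2, Eed and Suz12 of Polycomb repressive complex 2 (PRC2), and Bmi1, Cbx2, Cbx7, Cbx8, Ring1 and Rnf2 of Polycomb repressive complex 1 (PRC1). They were taken by name from the 22555 genes that could be named on the array, and every one of their 15 probes was kept whatever its value. The RNA came from mouse long-term hematopoietic stem cells (LT-HSCs), the rare bone marrow cells that renew themselves and maintain blood formation. They were labelled as sorted by a CD150+CD48-Flt3-CD34- LSK gate (lineage-negative, Sca-1+, c-Kit+). One array held RNA from p38α+/+ mice and the other held RNA from p38αΔ/Δ mice, so each genotype had 1 array and no replicate. All mice carried floxed alleles of Mapk14, the gene of the stress-activated kinase p38α, and all received tamoxifen (TAM) at 50 to 60 weeks of age. The p38αΔ/Δ mice also carried CAG-CreERT2, a tamoxifen-activated Cre recombinase driven by a ubiquitous promoter, so that deletion was not limited to blood cells, whereas the p38α+/+ controls were Cre-negative, age-matched animals that received the same TAM. Cells were taken 1 year after TAM, at 2 years of age. The study's methods add a CD41- gate to the sort and state that both sexes were used, but how many mice, and of which sex, supplied each RNA was not given in the sources used here.

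PRC2 places methyl groups on a lysine of histone H3, the H3K27 mark, through its catalytic subunit, which is either EZH2 or EZH1, and needs EED and SUZ12 for this activity. PRC1 carries the ubiquitin ligases RING1 or RNF2 (also called RING1B), a PCGF protein such as BMI1, and, in its canonical form, a CBX protein that reads the PRC2 mark. In blood stem cells Bmi1 and Ezh1 are known for their part in self-renewal, Ezh2 is generally more abundant in dividing cells, and the Cdkn2a locus is a classical Polycomb target.

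Signals were read as log2 intensity minus the 75th percentile of the same array, so that 0 marks the signal below which 75% of probes lay. Differences are given as the array labelled p38αΔ/Δ minus the p38α+/+ array. The error given with a difference is the scanner's own error of both spots combined; it covers 1 spot on each array and not the spread between mice. With 1 array per genotype no test of any difference was possible, and none is given. As a yardstick for the noise of a single spot, the SD of a difference between single spots was 0.14 on the log2 scale, taken from probes printed several times on each array. Levels of different probes are not compared, because probes bind with different strength. For the same reason the summed levels given for marker lists are weighted towards the brightest probes.

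The targeted gene was examined first, as a check of the labels. The 2 probes of Mapk14 read 2.34 and 2.08 on the p38α+/+ array and 2.31 and 2.03 on the other, which are differences of -0.04 and -0.05. The Mapk14 signal therefore did not separate the arrays. The probes start at bases 3532 and 1134 of the transcript, and whether either lies in the deleted part was not given in the sources used here, so that the check is not informative: it neither bears out the label nor goes against it. The second library is called the array labelled p38αΔ/Δ throughout. The LT-HSC label was also set against marker genes. The 11 LT-HSC markers reported here, a list from which some markers were left out, were well above background on both arrays and lower on the array labelled p38αΔ/Δ, with differences from -1.44 to -0.08, a median of -0.74 and a summed linear level of 146 against 107. Over all measured genes 52.4% were lower on that array, whereas all 10 measured B cell markers were higher. For 3 of these, Ebf1, Ms4a1 and Vpreb3, the direction was largely set by the filter. They cleared background on the array labelled p38αΔ/Δ alone, and the other 7 did so on both arrays. Over that list the summed levels were 3.94 (p38α+/+) and 19.1, of which Jchain made up most of the gap, since the other 9 measured markers summed to 2.77 and 3.87. Of the myeloid list, 9 of 12 neutrophil and monocyte markers were higher, with summed levels of 219 and 299. The furthest markers of these lists were Mecom (-1.44, with another of its probes at 0.61) for LT-HSCs, Jchain (3.75) for B cells, and Elane (-1.41) and Ltf (2.23) for neutrophils and monocytes, while the bright LT-HSC markers Kit and Hlf differed by -0.09 and -0.79. The measured erythroid markers (7 of 9 higher), T and NK cell markers (5 of 7) and megakaryocyte markers (6 of 9) had medians of 0.27, 0.57 and 0.47. Their summed levels were 747 and 857, 18.6 and 24.6, and 51.8 and 47.4. The megakaryocyte sum was thus lower although its median was higher, and the erythroid sum came mostly from Hemgn, at 9.52 (p38α+/+) and 9.72. Of the T and NK cell markers, Cd3d, Cd3g and Ncr1 did not clear background on either array. Cd3e did so on both, at -0.35 (p38α+/+) and 0.66. At their brightest probes Cd4, Cd8a, Lck and Nkg7 were also measured and higher on the array labelled p38αΔ/Δ. Cd2, at -1.91 (p38α+/+) and -3.98, and Klrb1c were lower there. The part of these differences in the Polycomb values was not tested. In such bulk RNA, fewer cells of a type and less RNA per cell cannot be told apart.

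The probes of the genes with the widest differences are shown here, since a microarray value belongs to the stretch of transcript that its probe binds. Ezh1 is shown because its 4 probes differed in size of difference, and Bmi1 because its 2 probes gave different answers. Ezh2, Ring1 and Rnf2 are shown because they had the widest differences of the 7 members with 1 probe. The first Ezh1 probe is printed whole, and of the others the last 30 bases of 60 are printed, 5′ to 3′. The number is the probe's start in its transcript. Capitals mark the polyadenylation hexamer AATAAA, the signal that precedes the end of many mRNAs, searched for on the probe strand alone and present in 10.1% of all 55662 probes.

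Ezh1 at 2248: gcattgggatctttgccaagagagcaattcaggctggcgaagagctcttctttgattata

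Ezh1 at 3557: cccagcatatattaagtaagctggataaag

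Ezh1 at 3883: ccttccctcagcaggcatcactggcagccc

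Ezh1 at 4133: acctcttatctAATAAAgtgttaagactcc

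Ezh2 at 2558: tgcaataatgcagtatggtacatttttcaa

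Ring1 at 1547: aagtatctatattgaattagtctatattgg

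Rnf2 at 2517: tgtaactaaagtgtcagtcattttaactat

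Bmi1 at 2868: tacttttacacacattgctgttaacttctg

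Bmi1 at 3324: tctcgaggttttcatggtgttacctaagac

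On mouse build mm9 the 4 Ezh1 probes lie on the minus strand, at chr11:101054534-101054593 (2248), chr11:101058722-101058781 (3557), chr11:101052680-101052739 (3883) and chr11:101052430-101052489 (4133). Of these only the probe at 2248 has 2 reading frames free of stop codons. The probe at 3557 was placed by the manufacturer on an Ensembl transcript and by its coordinates lies upstream of the others, which were placed on the RefSeq transcript. Whether it falls in an exon of the main Ezh1 transcript was not analysed here. The probe at 4133 carries the polyadenylation hexamer, a match of letters that does not by itself place a 3′ end.

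Ezh1, which encodes the catalytic subunit of PRC2 that prevails in resting cells, was lower at all 4 probes on the array labelled p38αΔ/Δ. The brightest probe, at 3883, read 3.28 in p38α+/+ cells and 2.77 in the second library, a difference of -0.51 ± 0.20 (scanner error), or 1.42-fold lower. The probe at 4133 read 2.24 and 1.67, a difference of -0.57 ± 0.20, or 1.48-fold lower. These 2 neighbouring probes thus gave nearly the same value. The dimmer probe at 2248 read -2.47 and -3.38, a difference of -0.91 ± 0.25, or 1.88-fold lower. The probe at 3557 read -2.45 and -3.52, a difference of -1.06 ± 0.26, or 2.09-fold lower, and was the 1 member probe past 2-fold. For comparison, among all measured probes 7.39% lay 2-fold or more below and 6.32% lay 2-fold or more above, a measured probe being one well above background on 1 or both arrays. The 4 Ezh1 differences averaged -0.76 with an SD of 0.27 over probes. The sizes at the bright probes held under every processing tried, between -0.57 and -0.42 at 3883 and between -0.57 and -0.51 at 4133. Those at the dim probes did not: under the normexp background correction they were -0.11 at 2248 and -0.13 at 3557. That correction adds an offset of 50 to every intensity, which by itself draws differences at dim probes towards 0. The shift therefore does not show whether the dim values are reliable.

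Probes of 1 gene often disagreed on these arrays. Among the 4546 genes with at least 2 probes well above background on both arrays, the median SD between the differences of a gene's probes was 0.33, and in 46.6% of them probes differed in sign. Of the 144 genes with 4 probes well above background on both arrays, 32 (22.2%) were lower at all 4 and 6.94% were higher at all 4. The count of those lower at all 4 by at least the smallest Ezh1 difference was 1 (0.694%), which was Ezh1 itself. This threshold was set from Ezh1's own values after they were seen, and the count is a description. At its brightest probe alone Ezh1 did not stand apart, since 18.4% of the 17191 measured genes were at least as low.

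**Figure D1:**
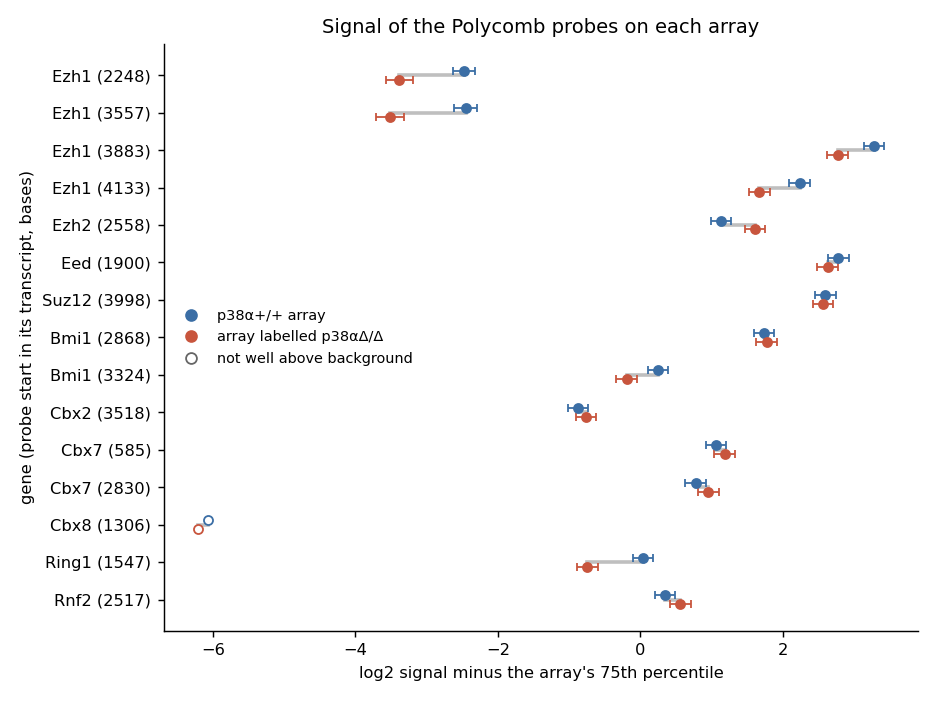
Signal of each Polycomb probe (rows, gene and start of the probe in its transcript) as log2 intensity minus the array's 75th percentile, on the p38α+/+ array (blue) and the array labelled p38αΔ/Δ (red). Error bars are the scanner's error of 1 spot, grey lines join the arrays, and open points are not well above background. Only the Ezh1 probes, Ring1 and the Bmi1 probe at 3324 are clearly lower on the second array, and Ezh2 is higher.

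Ezh2, the catalytic subunit associated with dividing cells, differed in the other direction from Ezh1. Its probe (chr6:47480307-47480366, minus strand) read 1.14 for p38α+/+ and 1.61 for the array labelled p38αΔ/Δ, a difference of 0.47 ± 0.20 (scanner error), or 1.39-fold higher. The value lay between 0.35 and 0.53 under the alternatives, and 17.2% of measured genes were at least as high. The ratio of Ezh2 to Ezh1 was therefore 1.98-fold higher on that array, or 0.98 ± 0.29 on the log2 scale. Depending on which Ezh1 probe was used, the change in this log2 ratio ran from 0.98 to 1.54 in the values given. The upper end came from the dim probe at 3557. With normexp the dim probes at 2248 and 3557 differed by -0.11 and -0.13, and Ezh2 by 0.35. With those probes the change in the ratio would lie below the range given. Over the alternatives, each with 1 Ezh1 value for the gene, the change in the log2 ratio of Ezh2 to Ezh1 ran from 0.92 to 1.24. This ratio does not change with a scaling constant per array, but it rests on 1 Ezh2 probe. Over all measured genes 52.4% were lower on the array labelled p38αΔ/Δ, with a median of -0.03. At least 2-fold lower or higher there were 6.62% and 4.11%. Of 22 proliferation genes, 16 were higher and 6 lower on the same array, none by 2-fold, with a median difference of 0.16. Their part in the Ezh2 value was not tested.

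Of the 4 PRC2 members, the shared subunits differed least. Eed, which binds the methylated histone tail and stimulates the enzyme, read 2.78 and 2.63, a difference of -0.15. Suz12, the scaffold that holds PRC2 together, read 2.60 and 2.57, a difference of -0.03, whose sign changed among the alternatives (-0.10 to 0.04). The difference of Suz12 was smaller than the noise of a single spot, and that of Eed was at its edge.

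Among the PRC1 ligases, Ring1 was lower and Rnf2 slightly higher. Ring1 (chr17:34158164-34158223, minus strand) read 0.04 for p38α+/+ and -0.74 for the array labelled p38αΔ/Δ, a difference of -0.78 ± 0.21, or 1.72-fold lower. This was the widest difference among the members at their brightest probe, and 10.1% of measured genes were at least as low. It lay between -0.79 and -0.49 under the alternatives, the smallest with normexp. Rnf2 (chr1:153316987-153317046, minus strand), which encodes the main ligase of PRC1 in most cells, read 0.35 and 0.56, a difference of 0.22 ± 0.20, and 32.1% of measured genes were at least as high. The ratio of Rnf2 to Ring1 was 2.00-fold higher on the array labelled p38αΔ/Δ (1.00 ± 0.29 on the log2 scale), and its log2 change ran from 0.69 to 1.03 over the alternatives. Each ligase was read by 1 probe.

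Bmi1, the PCGF subunit best known in blood stem cells, gave 2 answers. The brighter probe (chr2:18607531-18607590, plus strand) read 1.74 and 1.77, a difference of 0.03. The probe that starts further along the transcript (chr2:18607987-18608046) read 0.25 and -0.19, a difference of -0.44 ± 0.20. No direction is given for the gene. By the rule that takes the brightest probe, Bmi1 counted among the members that differed by less than the noise of a spot.

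The CBX genes, whose proteins bring PRC1 to the PRC2 mark, differed little or were not measured. Cbx7, the CBX gene most often linked to stem cell self-renewal, read 1.07 and 1.18 at one probe and 0.78 and 0.95 at the other, differences of 0.12 and 0.18. Cbx2 read -0.87 and -0.76, a difference of 0.11. Cbx8 (chr11:118899777-118899836, minus strand) stayed within background on both arrays, at -6.07 and -6.21, so no fold is given for it.

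**Figure D2:**
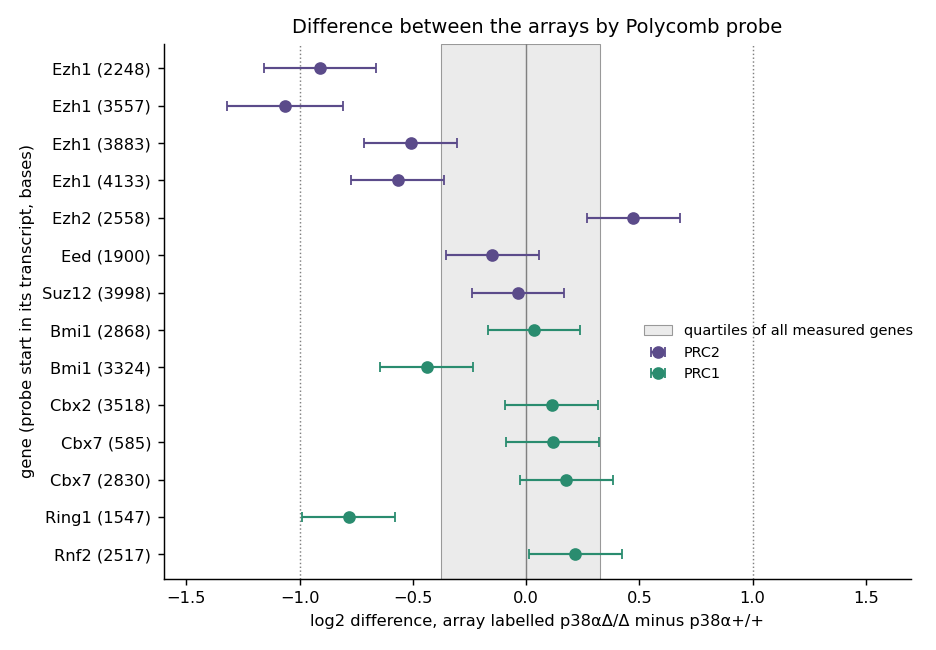
Difference of each measured Polycomb probe between the arrays on the log2 scale (x axis), grouped by complex, with the combined scanner error of both spots as bars. The grey band spans the quartiles of all 17191 measured genes, from -0.38 to 0.33, and dotted lines mark 2-fold. All 4 Ezh1 probes, Ring1 and the lower Bmi1 probe lie left of the band and Ezh2 lies right of it.

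Taken at the brightest probe of each gene, 9 of the 10 members were measured, of which 4 were lower and 5 were higher on the array labelled p38αΔ/Δ. For comparison, 52.4% of all measured genes were lower. None of the 9 was at least 2-fold lower or higher, against 6.62% and 4.11% of all measured genes. The members' median difference was 0.03, beside a median of -0.03 for all genes. Ezh1, Ezh2 and Ring1 were the 3 members whose difference exceeded 2 times its scanner error, and the same 3 lay outside the quartiles of all genes (-0.38 and 0.33). The complexes did not differ as blocks, since each held genes that were lower and genes that were higher. In PRC2, Ezh1, Eed and Suz12 were lower and Ezh2 was higher. In PRC1, Ring1 was lower and Bmi1, Cbx2, Cbx7 and Rnf2 were higher. The paired enzymes of each differed in opposite directions, but Rnf2, at 0.22, lay within the quartiles of all genes.

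The other Polycomb genes were taken from a list of 52 genes of the wider Polycomb system. All 52 were measured, 51 of them well above background on both arrays. Of the 52, 31 were lower and 21 higher, with a median of -0.08, beside 52.4% lower and a median of -0.03 over all genes. The count at least 2-fold lower was 1 and the count at least 2-fold higher was 0, against 6.62% and 4.11% of all measured genes. Of the 30 with at least 2 measured probes, 17 had probes of opposite sign, which limits what can be said about single genes.

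The list of PRC2 accessory genes, most of which help set where the complex binds, held the 1 gene past 2-fold. Epop, which encodes a component of the PRC2.1 form, read -0.75 and -1.79, a difference of -1.05, or 2.06-fold lower, at its only probe. Phf19, another PRC2.1 gene, differed by -0.77, and by -0.28 with the normexp background correction. In all, 5 of the 9 genes on this list, which also holds Rbbp4 and Rbbp7, were lower and 4 higher, with a median of -0.26. The difference of Epop shrank to -0.44 with normexp. Jarid2 and Mtf2, which help recruit PRC2 to chromatin, differed by 0.12 and 0.14, and the histone-binding genes Rbbp4 and Rbbp7 by 0.16 and -0.26.

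Of the 25 further PRC1 genes, 16 were lower and 9 higher, with a median of -0.07. Scml2, a Polycomb gene of the Sex comb on midleg family, read -0.32 and 0.58, a difference of 0.90, or 0.46 with normexp. Both of its measured probes were higher (0.68 and 0.90). L3mbtl2, which belongs to the PRC1.6 form, differed by -0.78 at its only probe, and by -0.12 with normexp. Kdm2b, which brings a variant PRC1 to CpG islands, was higher by 0.75 at its brightest probe. Another of its probes differed by -0.91, and the mean over its probes was -0.05. Auts2 was the most divided gene, with probes from -1.96 to 1.44. Of the PCGF genes that replace Bmi1 in other PRC1 forms, Pcgf1, Pcgf5 and Pcgf6 were lower by at most 0.27 at their brightest probes, while Pcgf2 and Pcgf3 were higher by 0.73 and 0.30. A second Pcgf2 probe differed by -0.51, the mean of its probes was 0.11, and with normexp the brightest probe gave 0.39.

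The enzymes that remove Polycomb marks were also measured. The 10 genes of the PR-DUB complex, which removes the ubiquitin mark placed by PRC1, lay between -0.30 (Bap1, its catalytic subunit) and 0.35 (Hcfc1). Asxl1 and Asxl2, the partners of Bap1, differed by 0.06 and 0.19, the latter with a sign that changed among the alternatives. The pair of demethylases of H3K27 differed in opposite directions. Kdm6a read -3.66 and -2.73 at its only probe, a difference of 0.93, and Kdm6b read 0.54 and -0.33, a difference of -0.86, with a second probe at -0.16. With normexp they were 0.33 and -0.57. The DNA-binding and other Polycomb genes were 3 lower and 3 higher. L3mbtl1 cleared background in p38α+/+ cells alone, at -4.13, and its difference was at least as low as -0.59 on the log2 scale, whereas with normexp it was 0.10.

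**Figure D3:**
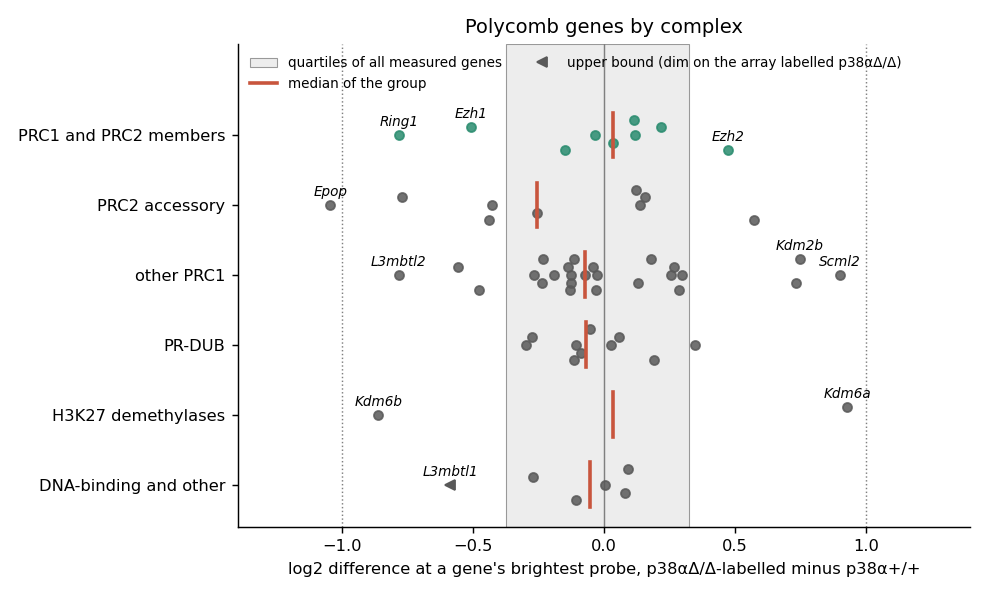
Log2 difference at the brightest probe (x axis) for the 9 measured members and the 52 other Polycomb genes, 1 point a gene, by group. Red bars are group medians, the grey band spans the quartiles of all measured genes, dotted lines mark 2-fold and the triangle is a bound for a gene dim on the second array. Points of every group lie on both sides of 0, and Epop alone lies past the 2-fold line.

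Genes that Polycomb complexes are known to hold silent formed a further list of 21 genes, of which 11 did not clear background on either array at their brightest probe. Cdkn2a, which encodes the cell cycle inhibitor p16INK4a and the tumour suppressor p19ARF, was among the 11 at both of its probes. Its neighbour Cdkn2b, which encodes the inhibitor p15INK4b, read 0.33 for p38α+/+ and did not clear background in the second library, which makes it at least 33.1-fold lower there. This value rests on 1 spot per array, of intensity 180 and 1.08, and a second Cdkn2b probe did not clear background on either. With normexp the same difference was -1.75 on the log2 scale. Cdkn1c, which encodes p57KIP2, differed by -0.08.

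Of the developmental regulators on that list, Pax5 and Ebf1, transcription factors of the B lineage, were higher on the array labelled p38αΔ/Δ. Pax5 read -1.97 and -1.28, a difference of 0.69, and Ebf1, dim in p38α+/+ cells, was higher by at least 1.31-fold. Both are also among the B cell markers named above, which were higher on the same array, and the part of B cell RNA in these values was not tested. Hmga2, an embryonic chromatin gene, was higher at its brightest probe by 0.45, while Sox1 was lower by 0.97 on the log2 scale at its brightest probe and higher by 0.40 at another. Neurog1, Nkx2-5, Igf2bp3 and Hoxd13 differed by -0.41, -0.22, -0.21 and -0.02, but with normexp by 0.03, 0.19, 0.07 and 0.09. Of the 10 measured targets 7 were lower and 3 higher, with a median of -0.14, beside -0.03 over all genes. With normexp 3 were lower and 7 higher, with a median of 0.08, beside 0.05 over all genes. The turn in sign came along with a shift of all genes, and no direction is given for the list.

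The dependence of the member values on the processing is drawn for each probe. Scaling by quantiles, by the median of detected probes or by loess shifted the members by small amounts, and normexp moved the dim Ezh1 probes and Ring1 towards 0. The directions of Ezh1, Ezh2, Eed, Cbx2, Cbx7, Ring1, Rnf2 and the lower Bmi1 probe were the same under every alternative, and those of Suz12 and the brighter Bmi1 probe were not.

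**Figure D4:**
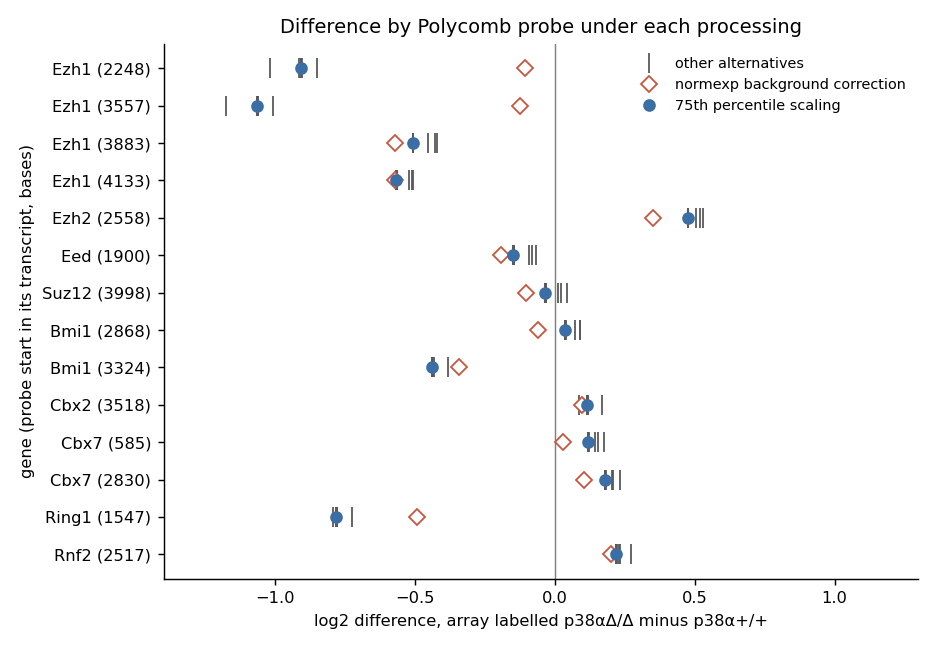
Log2 difference of each measured member probe (x axis) under the 75th percentile scaling (blue), the normexp background correction (open red diamonds) and the other alternatives (grey ticks). The probes of Ezh1 at 2248 and 3557 lie near -1 except with normexp, where they lie at -0.11 and -0.13, and Ezh2 lies right of 0 throughout.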

How the data were processed

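Total RNA of sorted LT-HSCs was hybridised to Agilent single-colour (Cy3) arrays, 1 per genotype, both on 1 slide. The authors deposited each scan's Feature Extraction output, with background-subtracted intensity per spot, and a table of log2 values. That table matched the log2 intensity minus a constant per array for 99.9% of its 35795 probes (within 0.01) and held only probes well above background on both arrays. Here log2 of the processed signal minus each array's 75th percentile was computed in Python 3.11.15, after removal of control and outlier-flagged spots. Spots of a probe were averaged. A probe counted as measured if well above background, by the scanner's call on most of its spots, on at least 1 array. A gene was represented by its brightest probe. If it was dim on 1 array, the array's lowest well-above-background signal, or the probe's own if higher, gave a bound. Of 55662 probes, 31778 were named through RefSeq symbols and accessions (assembly GRCm38.p6, names only). Coordinates are the file's, on mm9. Well above background were 68.1% (p38α+/+) and 69.2% of spots, and none was saturated.

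Alternatives were quantile, median and loess (span 0.3) scaling, normexp (limma 3.58.1, offset 50), the authors' log2 values, other filters and other rules for genes with several probes. In simulated data, the p38α+/+ array against a copy of it with 200 changed probes, the calculation recovered all 200. A copy holds no variation between mice or between separate hybridisations, so this checked the arithmetic alone. The members, the lists, and the rules were chosen with earlier results of these data known. Named were all members with every probe, Mapk14, the measured target genes, other Polycomb genes past 2-fold and the 3 furthest in each direction; further genes were named for their role after their values were seen. Some genes of the LT-HSC, erythroid and megakaryocyte marker lists are not reported here, and the counts, medians and summed levels of those lists were taken without them, after their values were seen and not because of them.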

Additional observations from a re-analysis of the deposited data

How the results depend on the processing

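No paired analysis was possible because each genotype had 1 array. For the same reason no array could be left out and no replicate spread could be had, and array and genotype cannot be told apart. The count of members at least 2-fold lower or higher was 0 under all 11 alternatives, and the members' median lay between -0.06 and 0.09, with its sign changing. The median of the other Polycomb genes was below 0 under all of them. The count of other Polycomb genes at least 2-fold lower, 1 in the values given, was 0 with scaling by the median of detected probes, 0 with normexp and 2 with no floor for dim probes, because a bound then becomes a fitted value. Over all measured genes normexp left 125 at least 2-fold lower and 49 higher, in place of 1138 and 706, and the counts were 785 and 497 when probes had to be well above background on both arrays. Both ratios, Ezh2 to Ezh1 and Rnf2 to Ring1, kept their direction under every alternative. The direction of the target list turned with normexp, to 3 lower and 7 higher, while the median of all genes moved from -0.03 to 0.05. Low signal over background limits the dim Ezh1 probes, Epop, Kdm6a, L3mbtl1, L3mbtl2, Sox1 and Cdkn2b, all of which moved with normexp, and leaves Cbx8 and Cdkn2a without a value. Ring1, Kdm6b, Phf19, Pcgf2 and Scml2, among others, also moved towards 0 with normexp. Its offset of 50 draws dim probes towards 0 by arithmetic, so these moves do not by themselves measure how reliable a value is.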

Other observations

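Genes listed under the trithorax group, which acts opposite to Polycomb, were lower more often than not. Most of the 16 listed encode enzymes that methylate histone H3 lysine 4, an activating mark, or partners of these enzymes. Over all genes the median was -0.03 and 52.4% were lower. Of the 16, 13 were lower and 3 higher on the array labelled p38αΔ/Δ, with a median of -0.23. The values ran from -0.71 for Setd1b, a lysine 4 methyltransferase gene, to 0.67 for Men1, whose product menin tethers such enzymes to chromatin. Kmt2a, a regulator of Hox genes in blood stem cells, read 4.11 and 3.85, a difference of -0.27, and none of the 16 reached 2-fold.

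The 13 DNA methylation genes were divided, 7 lower and 6 higher, with a median of -0.06. Dnmt3a, a methyltransferase gene of blood stem cells, differed by -0.29 at its only probe, and Dnmt1, which maintains methylation after replication, by -0.07. Tet2, which encodes an enzyme that oxidises methylated cytosine, was higher at all 3 of its probes, by 0.42 at the brightest. Uhrf1, the partner of DNMT1 at the replication fork, was higher by 0.58 at its brightest probe, while its other probe was lower by 0.94.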
